A study of Rattus norvegicus with 7 samples.

Results

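MHC class I genes and the genes that load peptides onto class I molecules were followed in rat lung RNA on Affymetrix expression arrays. The group held 10 genes of the 14217 with a probe set of a single gene symbol, namely RT1-A, RT1-CE5, RT1-CE16, RT1-S3, RT1-N3, RT1-T24-3, B2m, Tap1, Tap2 and Psmb8. Their probe sets were those whose only symbol in the platform annotation was one of these names, 19 of 31042 non-control probe sets. The genes had been selected on the expression values of these arrays, in which MHC probe sets differed between single arrays, so their levels and group differences are a description. Right lungs, perfused with saline, came from 7 Dahl salt-sensitive rats of 250 to 350 grams, per the labels, although the protocol text speaks of samples per strain. Every rat breathed a low-oxygen gas (about 9.5%) and received SU5416, which blocks VEGF receptors. The 3 rats of the HSU group had this treatment alone, and the 4 rats of the HSU_Sor group had sorafenib added, a drug that inhibits RAF and several receptor tyrosine kinases. Lungs were harvested at 3.5 weeks. The normoxia and hypoxia-only arrays of the design were not analysed here. Since the design counts rats, an array was taken as 1 rat. The HSU arrays are called 1b, 2b and 3b after their titles, and the HSU_Sor arrays Sor 1 to Sor 4. Only HSU titles carry the letter b, and what it marks cannot be told apart from the treatment.

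Class I molecules carry peptides from inside the cell to its surface, where CD8 T cells and natural killer cells read them. A class I heavy chain, in the rat encoded by many RT1 genes, pairs with beta-2-microglobulin (B2m). The peptides are cut by proteasomes, among them the immunoproteasome with its subunit Psmb8, and are pumped into the endoplasmic reticulum by the transporter made of Tap1 and Tap2. Classical class I genes of the rat lie in the RT1-A region, and a larger and variable set of further class I genes lies in the RT1-C/E/M region, to which the CE, N, S, T24 and M genes belong. Interferons raise the transcription of most of these genes in many cell types, including the endothelium, epithelium and macrophages of the lung. The RT1 complex is among the most variable parts of the rat genome, and inbred strains differ both in RT1 sequences and in which RT1 genes they carry. An expression array reads short probes, so its signal depends on the match between the probe and the transcript as well as on the amount of transcript.

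The values were log2 expression per probe set, with array medians between 3.59 and 3.68. Markers of lung were high on every array, with a mean log2 level over 7 of 7 listed genes between 14.82 and 15.00, Sftpc, a surfactant protein gene, between 15.39 and 15.54 among them. A filter on the mean over the 7 arrays kept probe sets above 3.64 and passed 15521 probe sets, among them 15 of the 19 member probe sets, with at least 1 for each of the 10 genes. Precision is limited by the small number of arrays. In whole-lung RNA, fewer cells of a type and less RNA per cell cannot be told apart.

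Arrays 1b and 2b stood apart from the other 5 arrays at some RT1 probe sets. For each probe set the 7 values were sorted and the widest gap between neighbouring arrays was found, without using the groups. A gap of at least 2 on the log2 scale occurred in 3 of the 19 member probe sets, against 65 of all 31042 probe sets (0.209%), and in each of the 3 it was arrays 1b and 2b that lay above the gap. These were 2 probe sets of RT1-CE5 and the probe set of RT1-T24-3. Over the whole array 9 probe sets (0.029%) had arrays 1b and 2b above such a gap, and 7 of these carried RT1 symbols. The other 2 were Mb (myoglobin) and Bpifa1, an airway secretory protein. With a gap of at least 1 there were 4 member probe sets against 497 of all probe sets (1.6%), and with a gap of at least 3 there were 2 against 22 (0.0709%). Counting only gaps with arrays 1b and 2b above, the shares of all probe sets were 0.058% and 0.0193%, and the member counts were again 4 and 2.

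**Figure D1:**
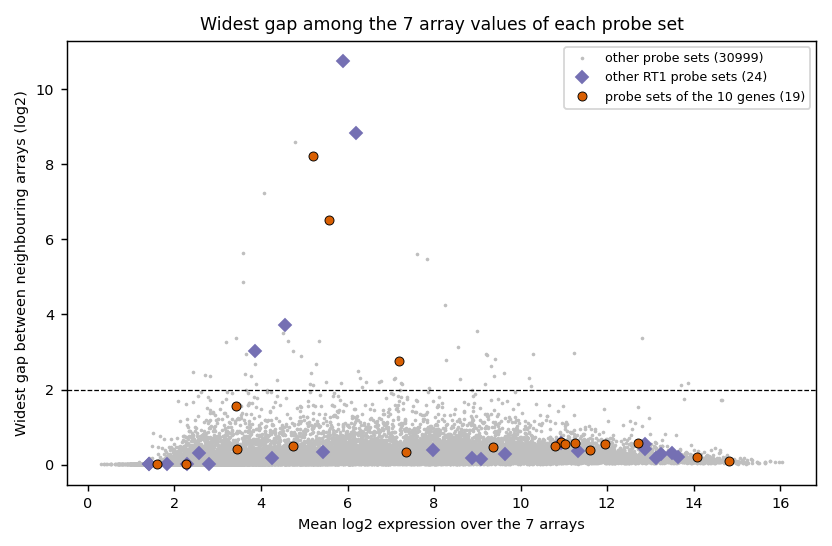
Widest gap between neighbouring arrays (log2, vertical axis) against the mean log2 expression over the 7 arrays (horizontal axis), with a point for each of the 31042 non-control probe sets. The dashed line marks a gap of 2. The 3 member probe sets above it are 2 of RT1-CE5 (8.23 and 6.51) and that of RT1-T24-3 (2.77), and 4 further RT1 probe sets also lie above it.

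RT1-CE5, a class I heavy chain gene of the RT1-C/E region, had 5 probe sets that did not behave alike. Probe set 1371209_at was at 11.05 on array 1b and 11.45 on array 2b, at 2.76 on array 3b, and at 2.81, 2.75, 2.71 and 2.82 on Sor 1 to 4. Thus 2 arrays of the HSU group were high and the third lay with the HSU_Sor arrays near the floor. Probe set 1388255_x_at was at 10.28 and 10.37 on arrays 1b and 2b, at 3.66 on array 3b and from 3.50 to 3.77 in HSU_Sor. A dimmer probe set, 1371210_s_at, was at 4.51 and 4.99 on arrays 1b and 2b, at 2.92 on array 3b and from 2.82 to 2.95 in HSU_Sor, a gap of 1.56 at the same place. The other 2 probe sets did not separate arrays 1b and 2b. Probe set 1388254_a_at lay at 1.58 to 1.62 on the 7 arrays, although it and the pair 1371209_at and 1388255_x_at were drawn from 1 sequence record, and 1370972_x_at lay between 3.37 and 3.82 with its highest value on array 3b. The 3 dimmer probe sets did not pass the filter, and the 2 brighter ones passed it through arrays 1b and 2b.

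RT1-T24-3, a class I gene of the same larger region, had 3 levels in its 1 probe set with a single symbol. That probe set was at 10.08 and 10.67 on arrays 1b and 2b, at 7.30 on array 3b and at 5.54, 5.78, 5.35 and 5.54 on Sor 1 to 4. The 4 HSU_Sor values thus lay below the 3 HSU values. It was the only member probe set above the filter whose groups did not overlap, 1 of 15, where 5.26% of all probe sets tested did not overlap (3.25% with HSU_Sor lower). Array 3b lay 1.53 above the highest HSU_Sor array, and 2.77 below array 1b. A probe set shared by RT1-T24-3 and RT1-T24-4, below the filter, lay between 2.48 and 2.87 on the 7 arrays, highest on array 2b.

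RT1-A, the classical class I heavy chain gene, was high on every array and highest on arrays 1b and 2b. Its probe set was at 12.51, 12.73 and 11.87 on arrays 1b, 2b and 3b and at 11.97, 11.65, 11.32 and 11.64 on Sor 1 to 4. Array 3b lay within the HSU_Sor range, and the widest gap, 0.53, lay below arrays 1b and 2b.

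RT1-CE16, another heavy chain gene of the RT1-C/E region, ran the other way. Its probe set was lowest on arrays 1b and 2b, at 10.34 and 10.07, highest on array 3b at 11.60, and at 11.27, 11.30, 10.93 and 10.99 on Sor 1 to 4. The widest gap, 0.59, again separated arrays 1b and 2b from the other 5 arrays. Arrays 1b and 2b were thus the high arrays in 3 probe sets of RT1-CE5 and the low arrays in RT1-CE16.

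The promoters of RT1-CE5 and RT1-CE16 are shown because arrays 1b and 2b were high at probe sets of the first gene and low at that of the second. Sequences are from RefSeq (GRCr8), whose reference rat is of the BN strain and not of the strain on these arrays. Of the 10 genes, 9 had an entry, RT1-A being the exception. Each sequence is 250 bases that end at the base before the annotated start, 5' to 3' on the gene's strand. The genomic positions are chr20:3484091-3484340 (minus strand) for RT1-CE5 and chr20:3265444-3265693 (minus strand) for RT1-CE16. Capitals mark matches to an enhancer A site (GG, any base, then GATT and CCCC without a gap) and to a longer and a shorter interferon-type repeat, each searched on both strands. The longer repeat is GAAA, any 2 bases, GAAA, and the shorter is GAANNGAAA.
RT1-CE5: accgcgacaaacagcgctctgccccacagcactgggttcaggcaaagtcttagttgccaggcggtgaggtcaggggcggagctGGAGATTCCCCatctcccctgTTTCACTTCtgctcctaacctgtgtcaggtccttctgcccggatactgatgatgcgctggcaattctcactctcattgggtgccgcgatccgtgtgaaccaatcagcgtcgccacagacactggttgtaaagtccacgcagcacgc
RT1-CE16: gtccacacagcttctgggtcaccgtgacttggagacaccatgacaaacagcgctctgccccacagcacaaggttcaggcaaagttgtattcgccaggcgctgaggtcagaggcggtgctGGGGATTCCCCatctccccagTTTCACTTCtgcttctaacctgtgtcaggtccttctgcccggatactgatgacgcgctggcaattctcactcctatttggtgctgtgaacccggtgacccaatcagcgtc
The 300-base windows of these 2 genes, which add 50 bases after the start, were identical at 231 of 263 aligned bases, 87.8%. Enhancer A, which binds NF-kB factors at class I genes, matched in these 2 of the 9 member windows and in 0.0837% of 33469 RefSeq windows of the same length. A CCAAT box (CCAAT) matched in 7 of the 9 windows and in 37.5% of the RefSeq windows. These matches are a description of the reference letters.

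RT1-S3, a nonclassical class I gene of the kind read by natural killer cell receptors, had 4 probe sets that agreed in shape. The brightest, 1388212_a_at, was at 12.50, 12.43 and 13.41 on arrays 1b, 2b and 3b and at 12.71, 12.84, 12.50 and 12.60 on Sor 1 to 4. Array 3b was the highest array for 4 of the 4 probe sets and lay 0.39 to 0.57 above the next array. RT1-S3 is the member with the most probe sets above the filter, and 2 of the 4 were drawn from 1 sequence record. None of the 4 placed arrays 1b and 2b on the high side of a gap.

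RT1-N3, a further nonclassical gene, was dim. Its probe set was at 4.60, 4.60 and 5.41 on arrays 1b, 2b and 3b and from 4.38 to 4.93 in HSU_Sor, with array 3b highest.

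**Figure D2:**
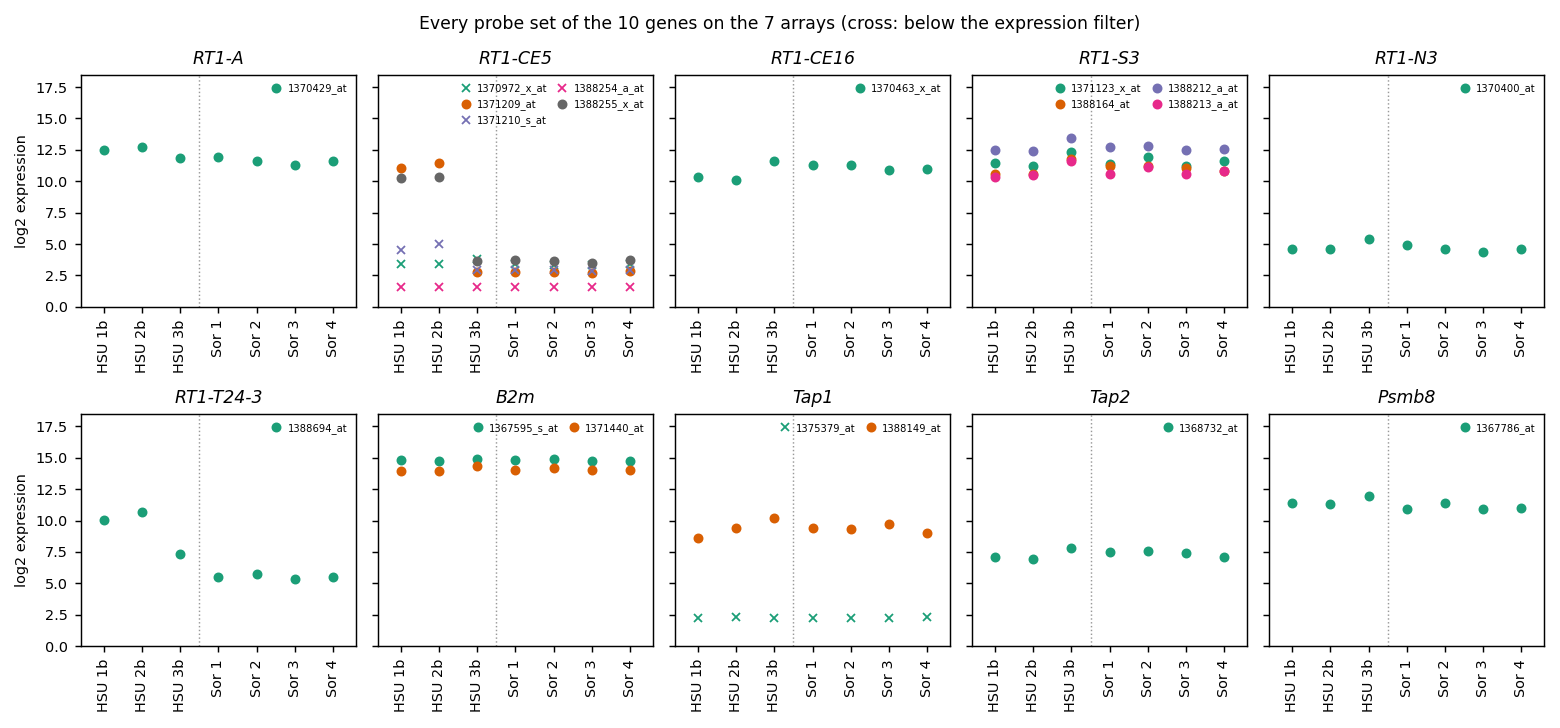
Log2 expression (vertical axis) of the 19 probe sets of the 10 genes on the 7 arrays (horizontal axis, Sor being HSU_Sor), 1 panel per gene and 1 colour per probe set. Crosses mark the 4 probe sets below the filter, and the dotted line separates the groups. RT1-CE5 drops from above 10 on arrays 1b and 2b to below 4 on the other 5 arrays in 2 probe sets, while B2m stays between 13.96 and 14.92.

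B2m, the light chain that pairs with class I heavy chains, varied little. Probe set 1367595_s_at was at 14.79, 14.76 and 14.92 in HSU and from 14.75 to 14.90 in HSU_Sor, and 1371440_at at 13.99, 13.96 and 14.36 in HSU and from 14.05 to 14.16 in HSU_Sor. Array 3b was highest in both, and the range over 7 arrays was 0.17 and 0.40. Arrays 1b and 2b were the lowest in 1371440_at and lay within the HSU_Sor range in 1367595_s_at.

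Tap1, a subunit of the peptide pump, was at 8.59, 9.38 and 10.16 on arrays 1b, 2b and 3b and at 9.39, 9.36, 9.70 and 9.01 on Sor 1 to 4 in probe set 1388149_at. Array 3b was highest and array 1b lowest. The second probe set of Tap1, 1375379_at, lay between 2.25 and 2.29 on the 7 arrays, at the floor. Tap2, its partner subunit, was at 7.11, 6.94 and 7.81 on arrays 1b, 2b and 3b and at 7.50, 7.59, 7.45 and 7.08 on Sor 1 to 4. It had array 3b highest and array 2b lowest. Psmb8, the inducible proteasome subunit whose gene lies between those of Tap1 and Tap2, was at 11.36, 11.32 and 11.93 in HSU and at 10.93, 11.36, 10.94 and 10.98 in HSU_Sor. For Psmb8, too, array 3b was highest, and Sor 2 lay between arrays 2b and 1b.

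Array 3b was the highest of the 7 arrays in 11 of the 15 member probe sets above the filter, against 16.1% of all probe sets tested. It was alone above the widest gap in 8 of the 15, against 5.36%. Without arrays 1b and 2b it was the highest of the remaining 5 arrays in 12 of the 15, against 22% of all probe sets tested. The 4 probe sets in which another array was highest were those of RT1-A, RT1-CE5 (2) and RT1-T24-3, each led by array 2b. The 11 include 4 probe sets of RT1-S3 and 2 of B2m, which are not independent. The members were also chosen on these values, so nothing is read from these counts.

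Interferon-stimulated genes were highest on array 3b. Of 19 listed genes 14 were above the filter. Array 3b was the highest array for 14 of these 14, against 16.1% of all probe sets tested. Their mean log2 level was 11.00 on array 3b, 9.26 and 9.41 on arrays 1b and 2b, and 9.17 to 9.49 in HSU_Sor. The antiviral GTPase gene Mx1 was at 12.46 on array 3b and from 9.34 to 10.15 on the other 6, and the 2-5A synthetase relative Oasl was at 7.66 against 4.23 to 4.77. The mean level of the list differed by -0.53 between HSU_Sor and HSU, and by 0.03 without array 3b. A two-sided exact permutation test of the difference of -0.53 gave p = 0.314. The smallest p that 3 against 4 arrays allow is 0.0571, so this test could not reach the threshold used for probe sets. The list was also chosen with earlier results of these data known, so nothing is read from this p. Of the T and NK cell markers above the filter, 9 of 12 listed, 8 were highest on array 3b, against the same 16.1%, and Cd2 was not. Nkg7, a gene of cytotoxic cells, was at 7.80 on array 3b against 4.21 to 5.35 on the other 6, while Cd3e, of the T cell receptor complex, stayed between 7.41 and 7.58. The mean of the 9 was 8.83 on array 3b, 7.23 and 7.66 on arrays 1b and 2b, and 7.56 to 8.20 in HSU_Sor, with Cd3d, Cd8b and Cd4 below the filter, between 1.97 and 2.18. The part of these lists in the class I values was not tested.

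The promoters of RT1-S3, B2m and Tap1 are shown as examples of members that were highest on array 3b together with the interferon-stimulated genes. RT1-CE16, RT1-N3, Tap2 and Psmb8 were also highest on array 3b, and of these RT1-CE16 had no match to the longer repeat. They lie at chr20:2675278-2675527 (plus strand), chr3:129549080-129549329 (plus strand) and chr20:4668544-4668793 (minus strand) in GRCr8. Capitals mark the longer interferon-type repeat on either strand.
RT1-S3: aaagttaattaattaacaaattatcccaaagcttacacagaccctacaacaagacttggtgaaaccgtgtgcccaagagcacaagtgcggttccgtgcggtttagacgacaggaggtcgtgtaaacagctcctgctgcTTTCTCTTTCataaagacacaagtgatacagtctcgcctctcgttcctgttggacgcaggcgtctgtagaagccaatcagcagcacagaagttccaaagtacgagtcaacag
B2m: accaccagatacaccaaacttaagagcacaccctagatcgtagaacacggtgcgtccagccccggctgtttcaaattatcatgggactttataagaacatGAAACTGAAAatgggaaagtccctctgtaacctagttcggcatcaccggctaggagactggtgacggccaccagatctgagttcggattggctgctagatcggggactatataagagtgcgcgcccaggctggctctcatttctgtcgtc
Tap1: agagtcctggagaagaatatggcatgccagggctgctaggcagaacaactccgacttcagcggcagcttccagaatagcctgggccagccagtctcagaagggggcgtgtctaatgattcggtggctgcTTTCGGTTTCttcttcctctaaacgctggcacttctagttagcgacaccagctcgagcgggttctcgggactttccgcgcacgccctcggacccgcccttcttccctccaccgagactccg
This repeat matched in 6 of the 9 member windows of 300 bases (RT1-S3, RT1-N3, B2m, Tap1, Tap2 and Psmb8) and in 3.92% of 33469 RefSeq windows. The shorter GAANNGAAA matched in RT1-CE5, RT1-CE16, Tap2 and Psmb8, 4 of 9, and in 8.54%. In Tap2 and Psmb8 the 2 matches overlapped. Either of them was present in 8 of the 9 windows and in 11.7% of all, RT1-T24-3 being the member without a match. The absence of these letters from that window says nothing of the factors that act on the gene.

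Markers of other cell types were read beside the pattern of arrays 1b and 2b. Heart muscle genes, 5 of 7 on the array, were above the filter, with Tnnt2 and Tnni3 below it. Their mean log2 level was 9.47 and 8.66 on arrays 1b and 2b, 6.21 on array 3b and 5.99 to 7.16 in HSU_Sor. This mean was thus highest on the same arrays as RT1-CE5. That is partly built in, since Mb was already named for its gap and passed the filter through arrays 1b and 2b. Nppa was at 9.10 on array 1b, but its 6.80 on array 2b equalled that on Sor 4. The part of heart muscle genes in the RT1 values was not tested. Markers shared by leukocytes, 4 of 5 above the filter, lay between 11.76 and 12.13 in HSU and from 11.98 to 12.13 in HSU_Sor. Macrophage markers, 7 of 7, lay between 9.56 and 10.52 in HSU and from 9.24 to 9.91 in HSU_Sor, and endothelial markers, 5 of 5, between 12.80 and 12.98 and between 12.71 and 13.07. Of the B cell markers, 0 of the 3 on the array were above the filter. Arrays 1b and 2b were not together the highest for leukocyte, macrophage or endothelial markers, although array 1b was second to array 3b for macrophage markers at 10.38.

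The comparison of HSU_Sor with HSU asked whether adding sorafenib changed class I and loading genes. With limma and Benjamini-Hochberg adjustment over the 15521 probe sets, 0 of the 15 member probe sets above the filter had an adjusted p below 0.05, as had 0% of all probe sets tested. At an unadjusted p below 0.05 there were 5 of 15, each lower in HSU_Sor, against 6% of all probe sets tested (3.67% lower and 2.33% higher in HSU_Sor). Since this contrast was known when the genes were chosen, nothing is read from that count. These were the probe sets of RT1-A, RT1-CE5 (2), RT1-T24-3 and Psmb8. Of the 15, 12 were lower and 3 higher in HSU_Sor, with a median log2 difference of -0.12, against -0.01 over all probe sets tested. The share of all probe sets that were lower in HSU_Sor was not computed, so nothing is read from the 12. The adjusted p of the 15 ran from 0.567 to 0.998.

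For RT1-CE5 the HSU mean lay far from each of its arrays. Probe set 1371209_at had an HSU mean of 8.42 ± 4.90 (SD, n = 3) and an HSU_Sor mean of 2.77 ± 0.05 (SD, n = 4), a log2 difference of -5.65 ± 2.09 (SE, limma adjusted p = 0.812). Without arrays 1b and 2b, where array 3b stood alone for its group, the difference was 0.01. Without array 3b it was -8.48 ± 0.12, an SE that leaves out the HSU array lying apart. The direction of this gene therefore rested on arrays 1b and 2b. The second probe set, 1388255_x_at, gave -4.44 ± 1.64 with the 7 arrays, 0.01 without arrays 1b and 2b, and -6.66 ± 0.09 without array 3b.

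For RT1-T24-3 the means were 9.35 ± 1.80 (SD, n = 3) and 5.55 ± 0.18 (SD, n = 4), a difference of -3.80 ± 0.77 (SE, limma adjusted p = 0.567). It was -1.75 without arrays 1b and 2b and -4.82 ± 0.20 without array 3b. The sign was thus the same under both choices, with a smaller difference where arrays 1b and 2b were left out. That smaller difference rests on array 3b alone in its group and has no measure of spread between HSU rats. The SE of 0.20 leaves out the HSU array that lay apart. For RT1-A the means were 12.37 ± 0.44 and 11.65 ± 0.26, a difference of -0.72 ± 0.24 (limma adjusted p = 0.791). It was -0.23 without arrays 1b and 2b.

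The sign of the difference was read with HSU arrays left out. In 12 of the 15 member probe sets it was opposite without arrays 1b and 2b and without array 3b (RT1-CE5 being at 0.01 in the first case). In 3 (RT1-A, RT1-T24-3 and Psmb8) the level was lower in HSU_Sor both times. The 12 include the 4 probe sets of RT1-S3, and some of the differences were smaller than their SE, such as 0.03 ± 0.06 for B2m (1367595_s_at) without array 3b. The share of all probe sets with such a change of sign was not computed, so nothing about the members is read from this count. For RT1-CE16 the means were 10.67 ± 0.81 in HSU and 11.12 ± 0.19 in HSU_Sor, a difference of 0.45 ± 0.36 (SE, limma adjusted p = 0.874). This difference became -0.47 without arrays 1b and 2b and 0.92 ± 0.15 without array 3b. The 4 probe sets of RT1-S3 differed by -0.13 to 0.08 with the 7 arrays by -0.83 to -0.73 without arrays 1b and 2b, where array 3b stood alone for its group, and by 0.20 to 0.48 without array 3b. RT1-N3 differed by -0.24 ± 0.23, by -0.78 without arrays 1b and 2b and by 0.03 ± 0.15 without array 3b.

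The group differences of B2m, Tap1 and Tap2 were smaller than their SE. B2m differed by -0.02 ± 0.06 and -0.02 ± 0.11 (SE) in its 2 probe sets, Tap1 by -0.01 ± 0.37 and Tap2 by 0.12 ± 0.23, with limma adjusted p between 0.93 and 0.998. Psmb8 differed by -0.48 ± 0.18 (limma adjusted p = 0.812), with overlapping groups of 11.54 ± 0.34 (SD, n = 3) and 11.05 ± 0.21 (SD, n = 4). Without arrays 1b and 2b the differences were -0.11 and -0.28 for B2m, -0.80 for Tap1, -0.40 for Tap2 and -0.88 for Psmb8. Without array 3b, Tap1 and Tap2 were each 0.38 higher in HSU_Sor.

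**Figure D3:**
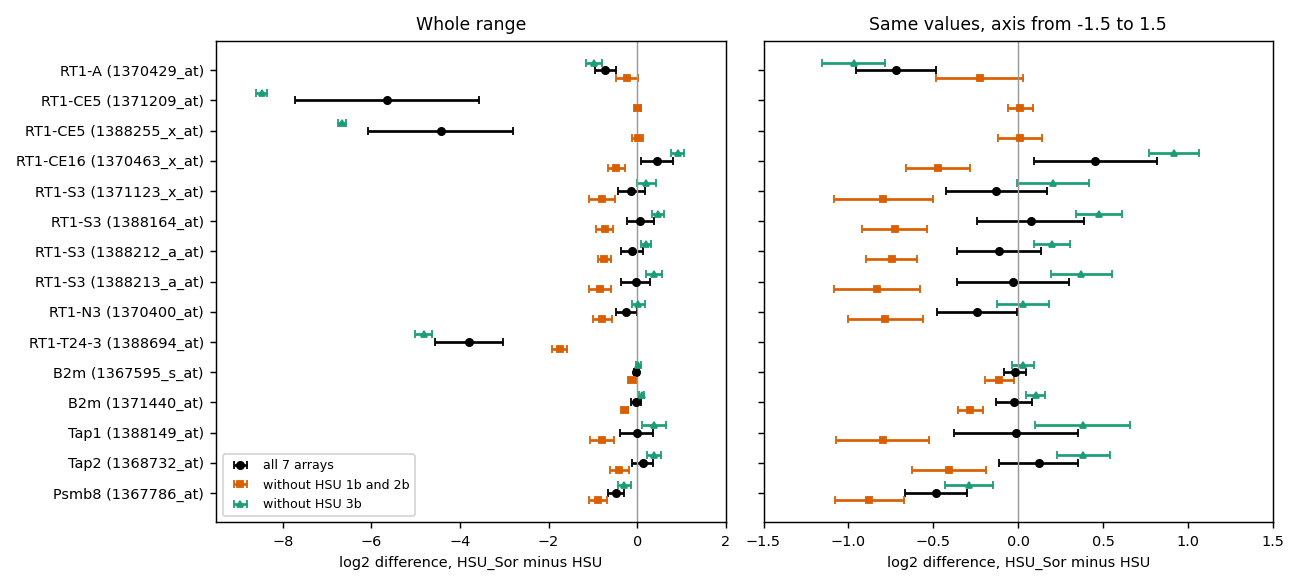
Log2 difference, HSU_Sor minus HSU (horizontal axis), with its SE from limma for the 15 member probe sets above the filter (vertical axis). Circles use the 7 arrays, squares leave out arrays 1b and 2b, and triangles leave out array 3b. For the squares array 3b is alone in its group, so their SE does not measure variation between HSU rats. The right panel enlarges the left around 0. RT1-CE5 moves from -8.48 to 0.01 between these choices, while B2m stays within 0.3 of 0.

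Leaving out array 3b brought 6 of 15521 probe sets past the adjusted threshold with limma (0.0387%), of which 3 were member probe sets, 2 of RT1-CE5 and that of RT1-T24-3. Array 3b was the HSU array nearest to HSU_Sor at these probe sets, and the genes were chosen on these values, so the count restates the split between arrays and is no test of treatment. The other 3 were of RT1-Bb, of RT1-Ba and of a probe set shared by RT1-A3 and RT1-A2. Leaving out arrays 1b and 2b together brought 10 past it (0.0644%), of which 0 were members. At an unadjusted p below 0.05 there were then 8 of 15 member probe sets, against 7.62% of all probe sets tested, with array 3b alone in its group and assumed to vary like the HSU_Sor arrays.

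Other genes of the class I pathway were read from a list of 21, of which 18 had a probe set with their single symbol and 15 were above the filter. With limma 0 of the 15 passed the adjusted threshold, and at an unadjusted p below 0.05 there were 2 lower and 0 higher in HSU_Sor, against 3.67% and 2.33% of all probe sets tested. This count was 0 with quantile normalization and 0 with median centring. The 2 were the chaperones of newly made heavy chains, Canx (calnexin, -0.20 ± 0.06, SE, limma adjusted p = 0.756) and Calr (calreticulin, -0.34 ± 0.13, limma adjusted p = 0.812). Canx was at 12.82, 12.90 and 13.03 in HSU and at 12.71, 12.74, 12.76 and 12.68 in HSU_Sor, without overlap. The next smallest p belonged to Rfxap (0.11 ± 0.07, SE), a subunit of a factor that binds MHC promoters, Irf2 (0.14 ± 0.10), a transcription factor of interferon-type repeats, Erap1 (0.17 ± 0.13), a peptide-trimming enzyme, and Psme2 (-0.20 ± 0.16), a proteasome activator. Rfxap did not overlap between the groups either, with HSU_Sor higher, but array 2b at 7.33 and Sor 2 at 7.34 nearly met. Groups without overlap were thus found in 2 of the 15, against 5.26% of all probe sets tested, and nothing is read from this count. The median difference over the 15 was -0.05, against -0.01 over all probe sets tested.

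The other 2 inducible proteasome subunits were Psmb9 and Psmb10. Psmb9 was at 11.12, 11.22 and 11.75 in HSU and from 11.41 to 11.93 in HSU_Sor, a difference of 0.24 ± 0.19 (SE, limma adjusted p = 0.874), and Psmb10 differed by -0.06 ± 0.16. Tapbp (tapasin), which bridges class I molecules to the transporter, differed by 0.02 ± 0.11. Nlrc5, the transactivator of class I genes, was below the filter, at 3.74 on array 3b and from 2.90 to 3.10 on the other 6. Array 3b was the highest array for 9 of the 15 pathway genes above the filter, against 16.1% of all probe sets tested. The pathway list was chosen with earlier results of these data known, so nothing is read from this count. The difference between Psmb8 and Psmb9 was not tested.

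**Figure D4:**
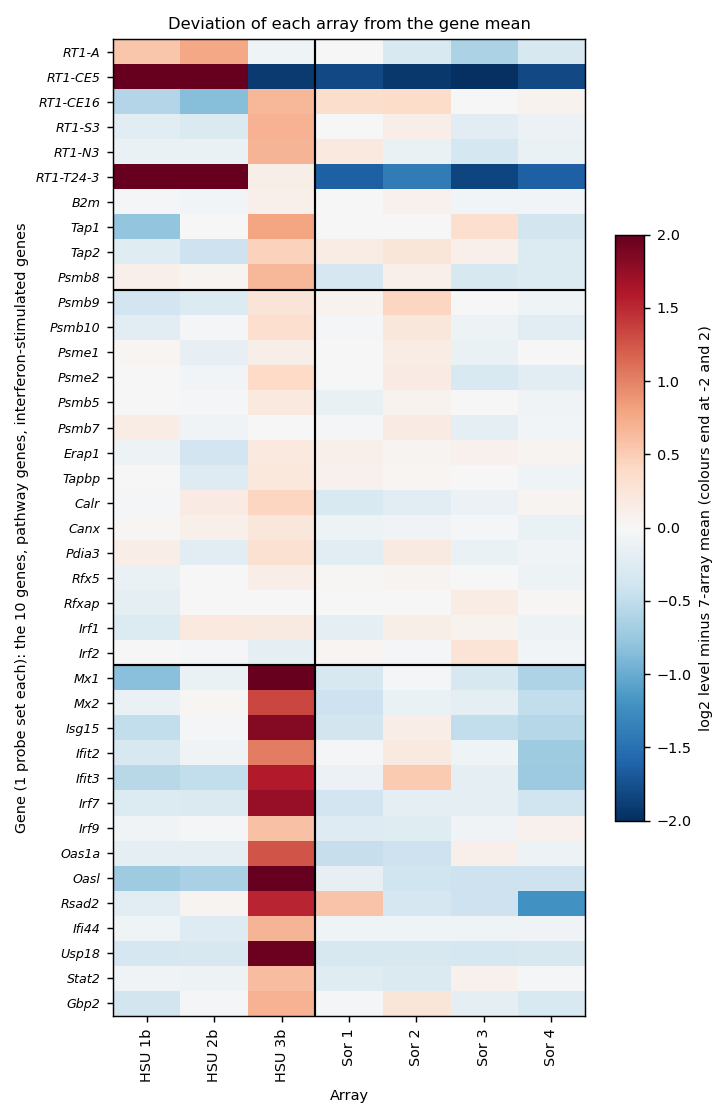
Deviation of each array (horizontal axis) from the 7-array mean of each gene (vertical axis, 1 probe set per gene), in log2 units with colours ending at -2 and 2. The upper block holds the 10 genes, the middle block 15 pathway genes and the lower block 14 interferon-stimulated genes. Arrays 1b and 2b are high at RT1-CE5 and RT1-T24-3, and array 3b is the highest array for each of the 14 genes of the lower block.

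Among probe sets of other genes, the 5 whose 7-array profile lay closest to that of RT1-CE5 (1371209_at, range 8.74) were ranked by the root mean square difference of centred log2 profiles. RT1-Bb came first at 0.23, followed by RT1-N2 (1.96), RT1-Ba (2.00), Bpifa1 (2.22) and Mb (2.24). The class II probe set of RT1-Bb was at 12.57 on array 1b and 12.57 on array 2b and from 3.55 to 3.72 on the other 5. A second RT1-Bb probe set was instead lowest on arrays 1b and 2b, at 13.17 and 13.08, and lay from 13.43 to 14.06 on the other 5. For Tap1 (range 1.57) the closest profiles were Rnase6 (0.15), Nsdhl (0.17), Cmpk2 (0.17), Atrx (0.17) and Ifi44l (0.20).

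Further class I genes on the array gave the same split at some probe sets and none at others. Of 7 probe sets with another single class I symbol, 1 had a gap of at least 2, that of RT1-N2, at 5.68 and 8.21 on arrays 1b and 2b and from 2.59 to 2.64 on the other 5. RT1-CE10, RT1-CE12, RT1-M3-1, RT1-T24-4 and RT1-A3 had gaps of at most 0.38. Of 6 probe sets with several class I symbols, 1 had such a gap, the probe set shared by RT1-A3 and RT1-A2, at 13.78 and 13.61 on arrays 1b and 2b and from 2.70 to 2.85 on the other 5. This probe set lies outside the choice of members and was picked after its values were seen. A probe set shared by RT1-A, RT1-CE5 and 3 further CE genes was between 8.95 and 9.36 on the 7 arrays. One shared by RT1-A, RT1-CE16 and RT1-A1 was lowest on arrays 1b and 2b, at 4.98 and 5.12, and lay from 5.44 to 5.79 on the other 5.

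Non-RT1 genes that lie among the RT1 genes showed no such gap. Between the first and the last RT1 gene in the RefSeq order (GRCr8), 17 RT1 genes had 30 probe sets, of which 6 had a gap of at least 2, each with arrays 1b and 2b above it. The 95 other genes of this stretch had 121 probe sets, of which 0 had a gap of at least 2 and 1 a gap of at least 1, not with arrays 1b and 2b above it. Above the filter the median widest gap was 0.49 for the 24 RT1 probe sets and 0.23 for the 72 others. The RT1 side includes member probe sets, which were chosen on these values. It also includes some probe sets that passed the filter through arrays 1b and 2b. The contrast with the other genes is therefore partly built in and is a description. No genotype of the rats was analysed here, and whether the RT1 alleles of the 7 rats differed was not tested.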

How the data were processed

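Expression was measured in 3 HSU and 4 HSU_Sor lungs, grouped by sample titles. The deposited values, made by the authors, are on a log2 scale, and array quartiles nearly coincide. RMA and GCRMA are named per the submitters' processing notes, but the tool behind the values was not given in the sources used here. Before any fit, the 57 control probe sets were left out. Of 31042 others, 20826 had 1 symbol, 436 several and 9780 none. RefSeq (GRCr8) matched 20758 of the single symbols and changed 0. A suffix of _s_at or _x_at (2 and 4 of the 19 member probe sets) marks probes that may match other transcripts, so near-identical RT1 genes may share signal.

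HSU_Sor minus HSU was fitted with limma (version 3.58.1, R version 4.3.3, lmFit and eBayes, two-sided, no covariate) on the 15521 probe sets with a mean above the median of 3.64, with Benjamini-Hochberg adjustment at 0.05. The procedure was tested on simulated data. Where 1 probe set had to stand for a gene, the brightest on average was used. Every member was described, and pathway genes were named by the smallest p or as Psmb9, Psmb10, Tapbp and Nlrc5. List levels are means of log2 values over genes above the filter. Markers of dendritic cells (1 of 4 on the array above the filter) lay between 6.25 and 7.39 in HSU and between 6.02 and 6.25 in HSU_Sor, and erythroid genes (2 of 3) between 11.32 and 12.13 and between 7.19 and 13.10. Members and lists were chosen with earlier results of these data known. Alternatives covered filters, normalization, variance models, probe set summaries, a replicate block and left-out arrays.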

Additional observations from a re-analysis of the deposited data

Results flagged for a closer look

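Among the 4 HSU_Sor arrays, 1 array stood far from the other 3 in 3 of 24 probe sets examined (Dixon's test at the 95% level), where chance gives about 1 in 20. Psmb8 was at 11.36 on array Sor 2 while the other 3 lay between 10.93 and 10.98. A B2m probe set (1371440_at) was at 14.16 on array Sor 2 while the other 3 had the same value of 14.05. Rfxap, a subunit of a factor that binds MHC promoters, was at 7.48 on array Sor 3 while the other 3 lay between 7.34 and 7.35.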

How the results depend on the processing

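The count past the adjusted threshold was 0 with the 7 arrays, 6 with a filter at the 75th percentile, 0 to 6 with each array left out (6 without HSU 3b) and 10 without HSU 1b and 2b together. The count at an unadjusted p below 0.05 was 562 with the 75th percentile filter against 931. For member probe sets this count of 5 was 2 with the 75th percentile filter, 2 with the replicate block, 8 without HSU 1b and 2b together and 2 to 6 with each array left out (6 without HSU 3b, 3 without HSU_Sor 2, 2 without any other single array). For pathway genes the count of 2 was 0 with quantile normalization and 0 with median centring, 1 with the replicate block, 1 with the mean of probe sets per gene, and 1 to 3 with each array left out (3 without HSU 3b, 1 without HSU 2b or HSU_Sor 1, 2 or 3). The count of 3 member probe sets with a large gap was 0 without HSU 1b and 2b together, which removes the arrays above the gap. The interferon list difference of -0.53 was -1.64 without HSU 1b and 2b together and -0.84 to 0.03 with each array left out (-0.84 without HSU 1b, 0.03 without HSU 3b). Of 166 differences of member genes under alternatives, 156 moved by less than the spread between arrays of a group, and the 10 that moved more were those without HSU 1b and 2b. This spread includes the split between HSU 1b and 2b and HSU 3b, so RT1-CE5 going from -4.44 to -6.66 without HSU 3b did not count as moved. The filters, the variance trend and the use of 1 probe set per gene could not change an estimate. The 156 are therefore no measure of stability. Apart from the samples or probe sets that a choice leaves out, the cause of these changes was not tested. The same-numbered arrays correlated at -0.06, 0.18 and 0.14 in their deviations, so the numbers were not taken as pairs. The SAM statistic was not run, and the offset for linear values did not apply. Differences near the floor are limited by the compressed scale.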
